A study of Mus musculus with 12 samples.

Results

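Liver tumours and non-tumour liver of mice lacking both Atg7 and Hmgb1 (double knockout, DKO) were compared across all expressed genes, with 3 RNA-seq libraries of each tissue out of 12 libraries in the series. The 6 libraries were chosen by the column names of the deposited raw count table, not by any measured value. All 6 come from C57BL/6 mice aged 15 months, with the genotype given as Atg7KO; Hmgb1KO for tumour and non-tumour tissue alike, so both deletions are shared by the groups compared. The other 6 libraries are tumours and non-tumour liver of Atg7KO mice of the same strain and age, and no wild-type liver was used here. The promoter or cell type that drives the deletions, and whether libraries come from separate animals, are not given in the sources used here. P-values therefore measure the spread between these libraries only. The question set by the labels is how the tumours differ from non-tumour liver of the same genotype.

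ATG7 is the E1-like enzyme that activates LC3-family proteins and ATG12, so that autophagosomes can form. Liver that lacks it accumulates the cargo receptor p62, which releases the antioxidant factor NRF2 from its inhibitor, and mice with autophagy-deficient hepatocytes develop hepatomegaly and, with age, liver tumours. HMGB1 is an abundant chromatin protein that also acts as a danger signal when it leaves the cell. In adult liver, hepatocytes are zoned, with Wnt-dependent glutamine and drug metabolism around the central vein and urea synthesis and gluconeogenesis around the portal tract. Dedifferentiating liver tumours commonly lose these programmes and re-express fetal genes.

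The 6 libraries held 18292190 to 32354958 reads in genes, fewest in non-tumour replicate 2 and most in tumour replicate 1. The table lists 24421 genes, and a filter on low counts kept 14443 of them for testing. Values below are CPM (read counts relative to library size, scaled with TMM factors), listed for non-tumour replicates 1, 2 and 3 and then for tumours 1, 2 and 3. Differences are log2 fold changes of tumour minus non-tumour, with their standard error (SE) from edgeR. Atg7 stood at 17.0, 13.3 and 8.78 CPM in non-tumour liver and at 4.396, 10.8 and 5.66 CPM in tumours. Hmgb1 stood at 99.9, 118 and 83.5 CPM and at 91.5, 60.5 and 84.9 CPM. Neither gene was at 0 in any library, and for both the groups overlapped. The counts cover whole genes and include exons outside a deletion and transcripts of other cells, so they do not test the deletions. Hepatocyte genes were abundant in all 6 libraries: Alb took 3.69% to 5.32% of reads.

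No gene passed an adjusted p under 0.05 in edgeR's quasi-likelihood test of tumours against non-tumour liver (0 of 14443, 0.0%, lowest adjusted p = 0.117), while 3251 genes (22.5%) had an unadjusted p under 0.05. Of these, 1769 were higher in tumours (12.2%) and 1482 lower (10.3%). DESeq2 called 624 genes higher (4.32%) and 531 lower (3.68%), and gave no adjusted p for 1755 genes. In 1900 genes (13.2%) every tumour lay above every non-tumour library and in 1986 (13.8%) every tumour lay below, and 1065 of the 1155 DESeq2 calls were among these. Limma voom with quality weights called 0. Leaving out non-tumour replicate 3 gave 597 edgeR calls, 297 higher and 300 lower, whereas leaving out any other single DKO library gave 0. Below, higher and lower describe values, and a gene is said to be called only where DESeq2 called it, unless another tool is named. The shares of all tested genes given here are the background for the counts of list members below.

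The libraries did not split evenly by tissue. The median absolute difference in log2 CPM over the tested genes was smallest between non-tumour replicate 3 and tumour 3, at 0.211, and 0.263 between tumours 2 and 3. Non-tumour replicate 3 was nearer to tumour 3 and to tumour 2, at 0.305, than to non-tumour replicates 1 and 2, at 0.350 and 0.413. Whether this library holds some tumour tissue was not tested. Its Afp and Igf2bp3 levels, given below, lay between those of non-tumour replicates 1 and 2. Its Igf2, H19, Myo5c and Gclc levels were the highest of the non-tumour libraries. Mean deviations of the fetal gene list from the non-tumour mean were -0.59, 0.02 and 0.57 in non-tumour replicates 1, 2 and 3. In tumours 1, 2 and 3 they were 1.54, 1.59 and 1.94. Without non-tumour replicate 3 the list medians described below were 1.85 for fetal genes, -1.40 for pericentral genes, -0.99 for complex I and 0.76 for chromatin regulators. With it they were 1.68, -1.31, -0.81 and 0.64. Tumour 1 stood apart from every other library, 0.490 and 0.499 from the other tumours and 0.515 to 0.736 from non-tumour liver. A first principal component with 50.7% of the variance placed tumour 1 at one end, at 101.8, and non-tumour replicates 1 and 2 at the other, at -42.4 and -56.55. Between them lay non-tumour replicate 3, at -11.08, and tumours 2 and 3, at 3.76 and 4.44. Non-tumour replicate 3 was nearer to these tumours than to the other non-tumour libraries. The distances and the component include the trend with gene length described below. Non-tumour replicate 3 shares its direction with the tumours (correlation with length 0.480, against 0.409, 0.475 and 0.436). Non-tumour replicates 1 and 2 were at -0.0364 and -0.435. The part of this trend in the distances was not tested.

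**Figure D1:**
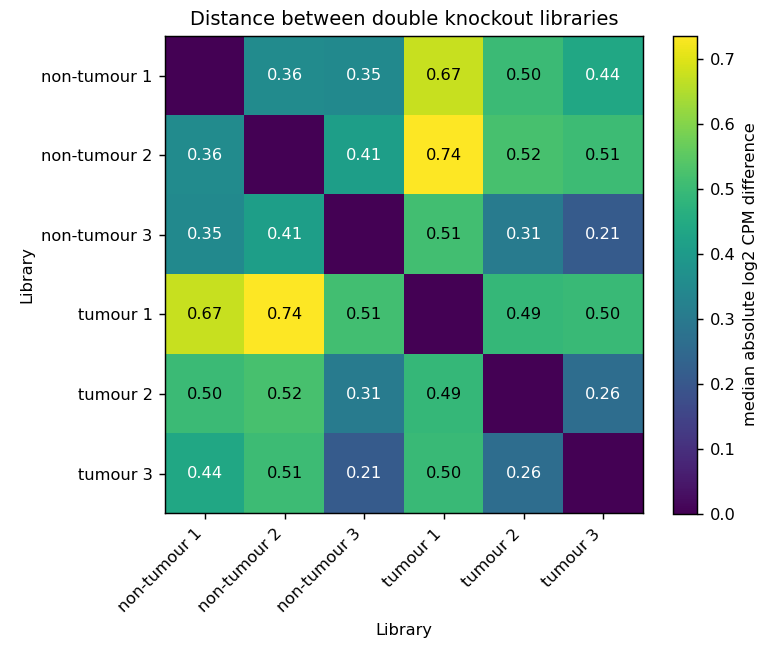
Median absolute log2 CPM difference over 14443 genes for each pair of the 6 DKO libraries (rows and columns are libraries, colour and number give the distance). Tumour 1 lies 0.490 or more from every library, and non-tumour replicate 3 lies 0.211 from tumour 3. The trend with gene length was not removed.

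Gene by gene the tumours also differed among themselves. Tumour 1 had 983 genes more than 2-fold above the highest non-tumour library and 1242 more than 2-fold below the lowest. Tumour 2 had 352 above and 226 below, and tumour 3 had 277 above and 102 below. Only 40 genes were above in all 3 tumours and 13 below in all 3, while 819 were above and 1064 below in tumour 1 alone. Non-tumour replicates measured the same way against the remaining pair gave 154 to 405 genes above and 139 to 453 below, against a range of 2 libraries instead of 3. Of the genes named here, those more than 2-fold above in all 3 tumours were Afp, Asns, Fosl1, Hmgcll1, Igf2, Igf2bp3, Myo5c, Psat1, Ptgs2, Sema3e and Tspan8, and those below in all 3 were Ces3b, Cyp4a14, Fam47e, Leap2 and Sult2a7.

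Fetal liver and liver cancer genes were higher in the tumours. Of 24 tested list members 22 were above 0, with a median of 1.68, against 50.9% of all tested genes above and 49.1% below 0 and a median of 0.0128; 8 lay above every non-tumour library, and 6 were called. Igf2, the fetal growth factor, on chromosome 7 (mm10, 142650768 to 142661035), stood at 3.02, 4.10 and 7.42 CPM in non-tumour liver and at 2850, 39.3 and 120.5 CPM in tumours. The groups did not overlap, yet tumour 1 held over an order of magnitude more than the other tumours, and the log2 fold change of 7.69 (SE 2.38, edgeR adjusted p = 0.130) rests largely on it. Igf2 overlaps the antisense gene Igf2os (log2 fold change 8.68), and the strand setting of the counting is not given, so their reads cannot be told apart. Afp, the alpha-fetoprotein of fetal hepatocytes, on chromosome 5 (90490714 to 90508907), stood at 8.28, 27.1 and 21.5 CPM and at 2324, 196.7 and 289 CPM. Its log2 fold change was 5.63 (SE 1.25, DESeq2 adjusted p = 0.000504, edgeR adjusted p = 0.117). Igf2bp3, an oncofetal RNA-binding protein, was low in both groups and close among tumours, at 0.679, 0.410 and 0.431 CPM and at 7.95, 8.01 and 8.82 CPM. Its log2 fold change was 4.01 (SE 0.81, DESeq2 adjusted p = 4.49e-05). It was the 1 gene that edgeR called when the 6 DKO libraries were fitted alone (SE 0.36 in that fit, adjusted p = 0.0234).

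Other members of the list were higher in some tumours and not in others. The proteoglycan Gpc3, a marker of hepatocellular carcinoma, was at 16.4, 16.9 and 20.04 CPM in non-tumour liver and at 745, 26.5 and 19.7 CPM in tumours, high in tumour 1 alone. The imprinted RNA H19 was at 1.996, 10.9 and 43.0 CPM and at 249, 29.95 and 489 CPM, high in tumours 1 and 3. Cdh17, a liver-intestine cadherin, showed the opposite order, at 0.466 CPM in tumour 1 and 52.97 and 19.9 CPM in tumours 2 and 3, against at most 1.66 CPM in non-tumour liver. Tspan8, a tetraspanin, lay above non-tumour liver in each tumour, at 18.3, 16.9 and 30.5 CPM and at 124.5, 156 and 65.2 CPM (log2 fold change 2.39, SE 0.71, DESeq2 adjusted p = 0.0100).

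**Figure D2:**
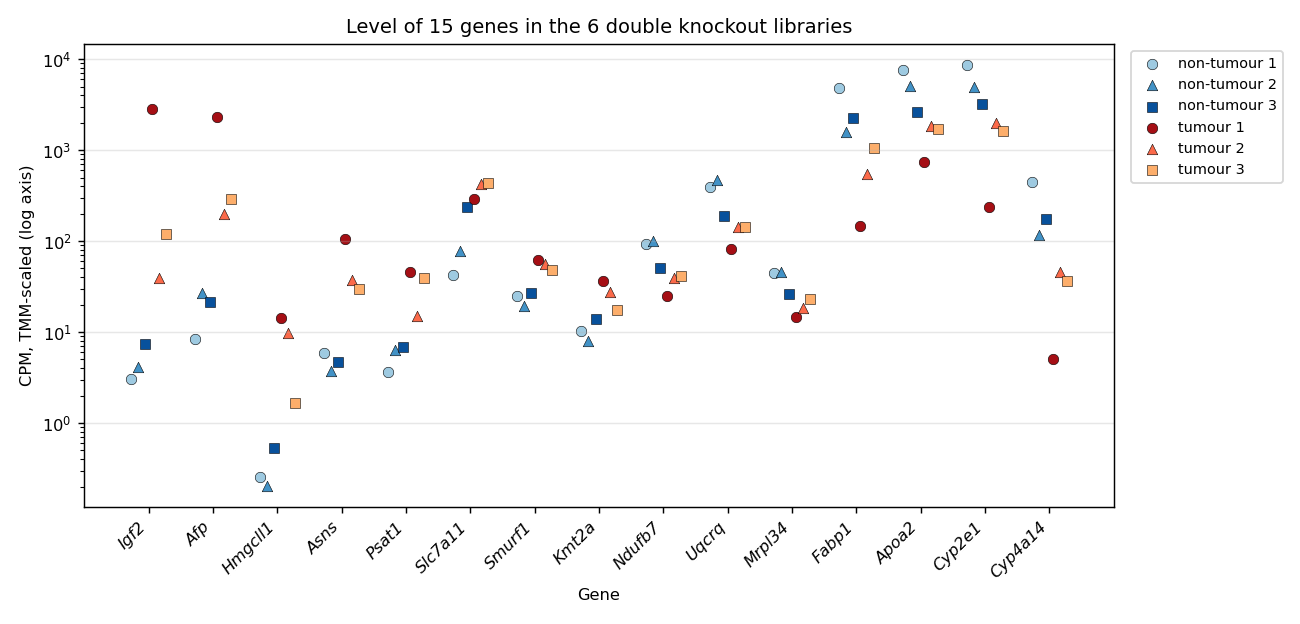
CPM of 15 genes on a log axis, 1 point per library; blue points are non-tumour replicates and red to orange points are tumours. Igf2, Afp, Hmgcll1, Asns and Psat1 lie higher in all tumours and Cyp2e1, Fabp1 and Cyp4a14 lower, with tumour 1 at the extreme for Igf2, Afp, Asns and the 3 lower genes.

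Of 30 genes of the endoplasmic reticulum and integrated stress list 18 were above 0 and 12 below, with a median of 0.13 that ran from 0.05 to 0.22 when single DKO libraries were left out and was 0.38 with the gene length offset described below. The list had 4 calls, all higher, in genes known as targets of the stress factor ATF4. Asns, asparagine synthetase, stood at 5.86, 3.69 and 4.74 CPM in non-tumour liver and at 106, 37.2 and 29.6 CPM in tumours (log2 fold change 3.59, SE 0.75, DESeq2 adjusted p = 5.33e-05). Psat1, the phosphoserine aminotransferase, stood at 3.61, 6.35 and 6.89 CPM and at 45.6, 15.0 and 39.1 CPM (log2 fold change 2.57, SE 0.47, DESeq2 adjusted p = 4.46e-05). Phgdh, the first enzyme of serine synthesis, was at 2.38, 2.32 and 2.42 CPM and at 12.6, 4.37 and 12.3 CPM, and the mitochondrial folate enzyme Mthfd2 was at 1.91, 2.94 and 3.54 CPM and at 13.2, 6.24 and 5.94 CPM. None of these 4 genes overlapped between groups. Over the list of 30, 4 members lay above and 2 below every non-tumour library. The shares of all tested genes were 13.2% and 13.8%, and 4.32% were called higher. The mitochondrial serine enzyme Shmt2 lay lower, at 274.5, 177 and 150.1 CPM and at 55.1, 143 and 134 CPM, and the endoplasmic reticulum gene Herpud1 lay lower too, with no tumour reaching the lowest non-tumour library in either gene.

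Among non-overlapping genes of 5 CPM or more, the 6 lowest edgeR p-values belonged to Psat1 and the following 5 genes. Smurf1, a ubiquitin ligase of the BMP and TGF-beta pathways, stood at 24.9, 19.5 and 27.0 CPM in non-tumour liver and at 62.3, 56.2 and 48.5 CPM in tumours, a log2 fold change of 1.22 (SE 0.18, edgeR adjusted p = 0.117, DESeq2 adjusted p = 1.76e-06). Its neighbour on chromosome 5, Trrap, a scaffold of histone acetyltransferase complexes, was at 26.8, 15.98 and 29.4 CPM and at 75.7, 76.4 and 48.0 CPM. Peak1, a pseudokinase of the cytoskeleton, was at 16.4, 12.7 and 24.1 CPM and at 65.6, 43.2 and 38.6 CPM. Myo5c, an unconventional myosin of secretory epithelia, was at 1.66, 1.64 and 5.07 CPM and at 78.6, 21.4 and 18.7 CPM (log2 fold change 3.80, SE 0.67). Hmgcll1, an HMG-CoA lyase of ketone synthesis outside mitochondria, was at 0.255, 0.205 and 0.530 CPM and at 14.2, 9.81 and 1.66 CPM (log2 fold change 4.62, SE 0.84). Tumour 1 was highest for Myo5c and tumour 3 lowest for Hmgcll1. These 5 genes were all called, by DESeq2 on the same counts. Their lack of overlap between groups was a condition of the choice. Among the 30 genes of lowest p 27 were higher in tumours, 9 lay on chromosome 5 and the median gene length was 6032.5 bases, against 2862 over all genes tested.

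The remaining genes with the largest positive log2 fold changes were uneven. Lrp2, the endocytic receptor megalin, was at most at 0.212 CPM in non-tumour liver and at 87.2, 0.381 and 0.625 CPM in tumours, and Lypd6b, a Ly6-family membrane protein, was at 22.9, 0.312 and 0.813 CPM in tumours. Both were therefore expressed above 1 CPM in tumour 1 alone. Sema3e, a secreted semaphorin, was at 0.212, 0.615 and 0.629 CPM and at 35.1, 5.10 and 4.47 CPM (log2 fold change 4.94, SE 0.91, DESeq2 adjusted p = 2.66e-06). Ptgs2, the inducible cyclooxygenase, was at 0.127, 0.137 and 0.596 CPM and at 2.71, 2.63 and 22.8 CPM, highest in tumour 3.

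Targets of NRF2 were higher in the tumours, by less than the fetal genes. Of 39 members 32 were above 0 with a median of 0.64, 12 lay above every non-tumour library and 6 were called; the median ran from 0.39 without non-tumour replicate 1 to 0.81 without non-tumour replicate 3 when single DKO libraries were left out. Gclc, the catalytic subunit of glutathione synthesis, stood at 405.5, 539 and 1268 CPM in non-tumour liver and at 2297, 1362 and 1562 CPM in tumours (log2 fold change 1.24, SE 0.41, DESeq2 adjusted p = 0.0294). Slc7a11, the cystine importer, stood at 42.3, 77.0 and 237 CPM and at 294, 426.5 and 432 CPM (log2 fold change 1.69, SE 0.58, DESeq2 adjusted p = 0.0334). For both genes non-tumour replicate 3 lay nearer to the tumours than to the other non-tumour libraries. Txnrd1, Osgin1, Abcc2 and Abcc4 were the other calls. Sqstm1, which encodes p62, was at 661, 768 and 812 CPM and at 852, 1051 and 769.9 CPM, with overlap (log2 fold change 0.25, SE 0.31, edgeR adjusted p = 0.656).

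Of 19 bile acid genes 7 were above 0 and 12 below, with a median of -0.79 (-0.43 without non-tumour replicate 1), 2 called higher and 2 lower. The efflux pumps Abcc4, on the sinusoidal membrane, and Abcc2, on the canalicular membrane, were called higher: Abcc4 stood at 57.8, 61.6 and 149.6 CPM in non-tumour liver and at 442, 196 and 316 CPM in tumours (log2 fold change 1.83, SE 0.42, DESeq2 adjusted p = 0.00189). The bile acid importer Slc10a1 was called lower, at 529.6, 307 and 259 CPM and at 26.7, 175 and 111 CPM (log2 fold change -1.81, SE 0.66, DESeq2 adjusted p = 0.0408), and so was the synthesis enzyme Cyp27a1 (log2 fold change -1.03). Cyp7a1, the rate-limiting enzyme of bile acid synthesis, was at 195, 119.6 and 199 CPM and at 17.4, 62.8 and 93.1 CPM without a call, and the bile acid receptor Nr1h4 had a DESeq2 adjusted p of 0.0502. Over the list 3 members lay above and 6 below every non-tumour library.

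Genes of differentiated hepatocytes were lower in the tumours, most of all in tumour 1. Of 25 pericentral genes 21 were below 0, with a median of -1.31, and 12 lay below every non-tumour library, but 2 were called. Relative to the mean of the non-tumour libraries the median deviation was -3.13 in tumour 1, -0.65 in tumour 2 and -0.84 in tumour 3, and the list's median was -0.84 without tumour 1. Cyp2e1, which oxidises ethanol and paracetamol, stood at 8630, 4963 and 3252 CPM in non-tumour liver and at 240, 2004 and 1623 CPM in tumours (log2 fold change -2.12, SE 0.83, DESeq2 adjusted p = 0.0424). Glul, glutamine synthetase of the innermost pericentral cells, was at 1543, 1330 and 1190 CPM and at 220, 769 and 648 CPM, and the Wnt feedback gene Axin2 was at 9.64, 5.46 and 9.17 CPM and at 1.81, 4.23 and 5.06 CPM, neither with a call. Lect2, a Wnt-dependent secreted factor, was the other call (log2 fold change -1.73, DESeq2 adjusted p = 0.0335). Going the other way, the neutral amino acid transporter Slc1a4 was at 25.4, 40.02 and 73.5 CPM and at 145, 76.0 and 96.4 CPM. Bulk tissue cannot tell fewer cells of a type from less RNA per cell, here and below.

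The periportal list of 19 had a median of -0.89, with 7 members below every non-tumour library and Arg1, the urea-forming arginase, as its 1 call. Arg1 stood at 2024, 2467 and 1334 CPM and at 650, 992.5 and 946 CPM (log2 fold change -1.17, SE 0.37, DESeq2 adjusted p = 0.0264). The gluconeogenic enzyme Pck1 was at 3976, 3208 and 1975 CPM and at 494, 1754 and 1264 CPM, and the serine dehydratase Sds, which overlaps Plbd2 on the other strand, was at 238, 244 and 156 CPM and at 3.96, 83.4 and 145 CPM. Neither was called. The urea cycle entry enzyme Cps1 went against the list, at 1748, 1859 and 1235 CPM and at 2884, 1490 and 1074 CPM, with overlap.

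Fatty acid oxidation genes had a median of -0.75 over 34 members, of which 30 were below 0, 17 below every non-tumour library and 5 called lower; the median was -0.39 without non-tumour replicate 1. Fabp1, the liver fatty acid binding protein, stood at 4878, 1567 and 2230 CPM and at 146, 552 and 1055 CPM (log2 fold change -2.31, SE 0.75, DESeq2 adjusted p = 0.0157). Etfb, a subunit of the flavoprotein that passes electrons from acyl-CoA dehydrogenases to the respiratory chain, was at 407, 465.5 and 234 CPM and at 155, 194 and 177.5 CPM (log2 fold change -1.07, SE 0.28, DESeq2 adjusted p = 0.0136). Decr1, Echs1 and Acot1 were also called. Cyp4a14, a PPAR-alpha target, was at 448, 118 and 177 CPM and at 5.07, 46.0 and 36.3 CPM, one of the largest differences (log2 fold change -3.09, SE 1.17) and yet without a call (DESeq2 adjusted p = 0.0643). The 37 cytochrome P450 genes had a median of -0.52, which was -0.31 with the length offset and -0.83 without tumour 3. The 37 plasma protein genes had one of -0.72, which was -0.43 with the offset and -0.45 without non-tumour replicate 2. Among plasma proteins Apoa2, an apolipoprotein of HDL that overlaps Tomm40l on the other strand, was at 7641, 5135 and 2649 CPM and at 746, 1833 and 1729 CPM (log2 fold change -1.84, SE 0.51, DESeq2 adjusted p = 0.00796). Apob, of VLDL, was at 2821, 1985 and 3334 CPM and at 8970, 4442 and 3686 CPM, above every non-tumour library.

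The genes with the most negative log2 fold changes included metabolic enzymes and secreted peptides. Sult2a7, a bile acid and steroid sulfotransferase of a family with near-identical copies whose reads are uncertain, was at 28.9, 2.39 and 2.88 CPM and at 0, 0.451 and 0.219 CPM. Acot3, a peroxisomal acyl-CoA thioesterase, was at 113, 18.2 and 57.5 CPM and at 1.72, 6.76 and 16.4 CPM (log2 fold change -2.93, SE 0.99, DESeq2 adjusted p = 0.0442). Mfsd2a, a lysolipid transporter, was at 132, 33.3 and 51.0 CPM and at 0.582, 16.5 and 18.2 CPM. Leap2, the hepatic peptide that opposes ghrelin, was at 25.2, 14.8 and 11.6 CPM and at 0.844, 4.58 and 4.66 CPM (log2 fold change -2.36, SE 0.70, DESeq2 adjusted p = 0.0129). Fam47e was called as well (log2 fold change -2.62), while Ces3b, a carboxylesterase, and Cib3 were not (log2 fold changes -2.57 and -2.40). In each of these genes non-tumour replicate 1 was the highest library and tumour 1 the lowest.

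**Figure D3:**
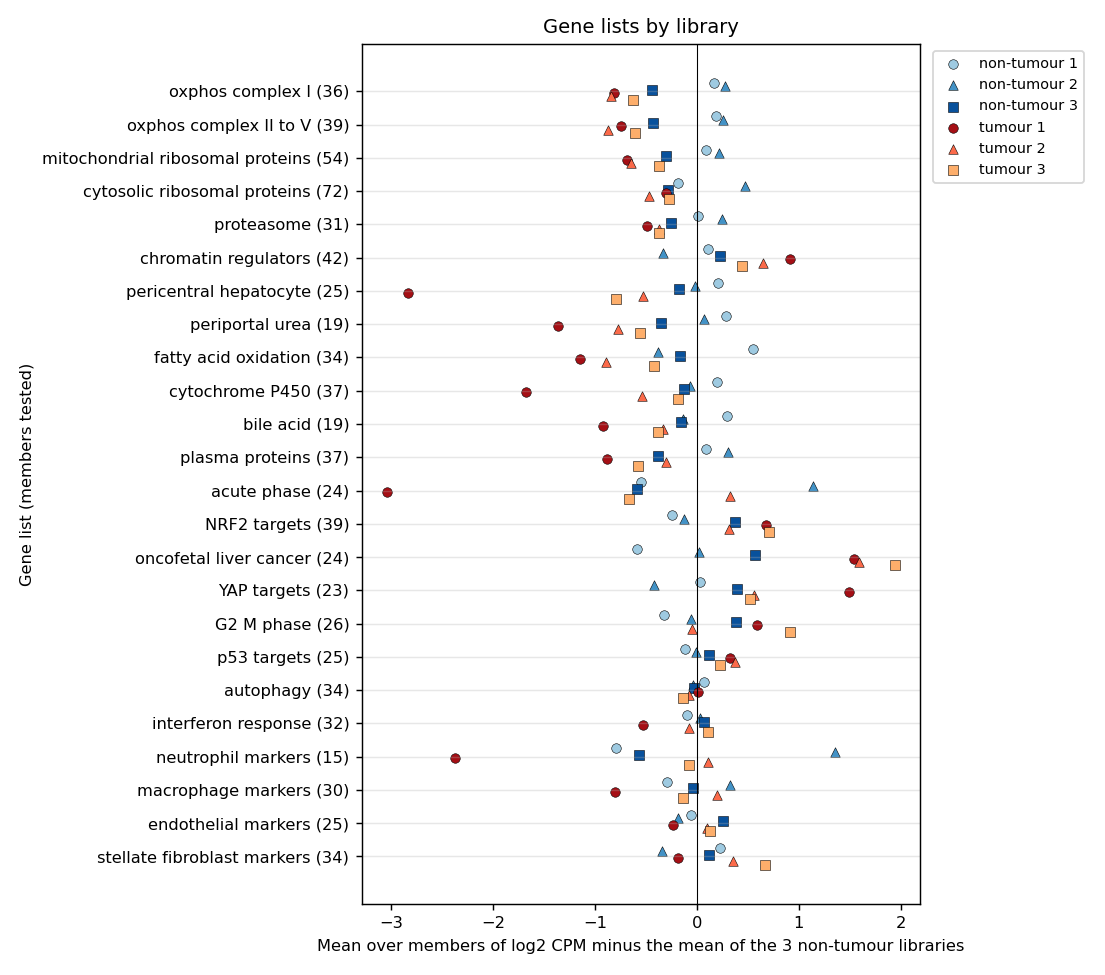
Mean over the tested members of each list of log2 CPM minus the mean of the 3 non-tumour libraries (x axis), 1 point per library, with the number of members in brackets. Tumour 1 lies far below the other libraries for pericentral, acute phase and neutrophil genes, while respiratory chain genes lie low and chromatin regulators high in all 3 tumours with non-tumour replicate 3 between the groups.

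Nuclear genes of the respiratory chain were lower in the tumours, by less once the length trend was removed. All 36 tested genes of complex I were below 0 with a median of -0.81, 28 lay below every non-tumour library and 21 were called; without non-tumour replicate 3 the count below every non-tumour library was 35, and edgeR then called 21. With the length offset the median of complex I was -0.25, with 31 of 36 below 0. All 39 genes of complexes II to V and their assembly were below 0 with a median of -0.82, 26 lay below every non-tumour library and 26 were called; with the offset the median was -0.23, with 36 below 0. Ndufb7, an accessory subunit of complex I, stood at 92.9, 101 and 50.9 CPM in non-tumour liver and at 25.2, 39.5 and 41.7 CPM in tumours (log2 fold change -1.20, SE 0.27, DESeq2 adjusted p = 0.00505). Uqcrq, a subunit of complex III, stood at 389, 469 and 187 CPM and at 82.4, 142 and 144 CPM (log2 fold change -1.51, SE 0.34, DESeq2 adjusted p = 0.00301). In both genes non-tumour replicate 3 lay just above the tumours. Median deviations were of like size in the 3 tumours, at -0.81, -0.87 and -0.66 for complex I.

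Promoters of respiratory chain genes are known for sites of the factors NRF1 and YY1. In RefSeq promoters (GRCm38.p6, from 250 bases before to 50 after the start), 62 of the 75 tested genes matched. The letters GCATGCG from the middle of the NRF1 site, searched on both strands, were in 11 of the 62 (17.7%), against 3.64% of all 27025 promoters and 6.11% of those of tested genes. The letters AAGATGG of the YY1 site, searched on both strands, were in 9 of the 62 (14.5%), against 6.48% and 6.96%. The gene of each set with the lowest log2 fold change is shown, with the match in capitals: Uqcr11 (a small subunit of complex III, chr10:80406772-80407071, minus strand) for NRF1, where the capitals are the reverse complement of the letters, and Ndufs7 (a core subunit of complex I, chr10:80249199-80249498, plus strand) for YY1. In Uqcr11 the letters themselves also occur on the strand shown, overlapping the capitals and ending in the lower-case g after them.
Uqcr11: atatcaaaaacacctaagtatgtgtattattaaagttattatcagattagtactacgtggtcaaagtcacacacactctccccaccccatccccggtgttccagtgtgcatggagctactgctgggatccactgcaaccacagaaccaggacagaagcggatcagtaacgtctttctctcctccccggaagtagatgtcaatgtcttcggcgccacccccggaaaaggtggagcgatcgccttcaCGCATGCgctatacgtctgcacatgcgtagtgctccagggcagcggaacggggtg
Ndufs7: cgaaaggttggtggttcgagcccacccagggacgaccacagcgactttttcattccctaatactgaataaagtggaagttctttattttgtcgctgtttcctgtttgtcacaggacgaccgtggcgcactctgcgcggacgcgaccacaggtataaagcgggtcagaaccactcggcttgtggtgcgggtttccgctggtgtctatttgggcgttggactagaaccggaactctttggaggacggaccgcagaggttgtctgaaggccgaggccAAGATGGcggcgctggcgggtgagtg
Uqcr11 stood at 193, 229 and 119 CPM in non-tumour liver and at 77.9, 78.6 and 95.6 CPM in tumours, without overlap (log2 fold change -1.10, SE 0.24, DESeq2 adjusted p = 0.00279). Ndufs7 stood at 100.2, 84.0 and 52.5 CPM and at 36.5, 40.3 and 42.3 CPM, without overlap (log2 fold change -0.99, SE 0.23, DESeq2 adjusted p = 0.00719). Respiratory chain genes with the NRF1 letters had a median of -0.81 and those without -0.84, and for the YY1 letters the medians were -0.84 with and -0.83 without. The letters are a description of the window and not a binding site.

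Other gene groups with short transcripts were lower too. Of all tested genes under 1 kb, 36.8% lay below every non-tumour library and 18.7% were called lower. For genes of 1 to 2 kb these shares were 25.3% and 7.30%. Of genes of 5 kb and over, 33.1% lay above every non-tumour library and 13.4% were called higher. All 54 mitochondrial ribosomal proteins were below 0 with a median of -0.58, 29 lay below every non-tumour library and 21 were called; Mrpl34 stood at 44.5, 45.5 and 26.1 CPM and at 14.8, 18.3 and 22.8 CPM (log2 fold change -1.05, SE 0.24). Proteasome genes had a median of -0.41 over 31 members with 2 calls, one of them Psmb6, a catalytic subunit (log2 fold change -0.95, SE 0.29, DESeq2 adjusted p = 0.0381), the other Psmb2 (log2 fold change -0.77). Cytosolic ribosomal proteins, many with processed pseudogenes that can share reads, had a median of -0.40 over 72 members with 0 calls by DESeq2 and 7 at an unadjusted edgeR p under 0.05. Among them 12 lay below every non-tumour library, 34 without non-tumour replicate 3 and 27 without tumour 1. Without non-tumour replicate 2 their median was -0.10, with 22 members above 0 and 3 above every remaining non-tumour library. Chromatin regulators, which are mostly long genes, went the other way: all 42 were above 0 with a median of 0.64, 30 lay above every non-tumour library and 14 were called, but the median was 0.07 with the length offset. Kmt2a, a histone H3 lysine methyltransferase, stood at 10.4, 7.92 and 13.7 CPM and at 36.0, 27.4 and 17.7 CPM (log2 fold change 1.34, SE 0.30, DESeq2 adjusted p = 0.00478). Tet3, which oxidises methylcytosine, stood at 8.53, 6.42 and 8.48 CPM and at 24.8, 17.4 and 12.4 CPM (log2 fold change 1.22, SE 0.28).

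The log2 fold change followed gene length across the whole table, with a Spearman correlation of 0.495 across 14443 genes, which are not independent replicates. The median log2 fold change was -0.57 for 1016 genes under 1 kb, -0.31 for 3288 genes of 1 to 2 kb, -0.06 for 3335 of 2 to 3 kb, 0.15 for 4184 of 3 to 5 kb and 0.47 for 2620 of 5 kb and over. DESeq2 called 190 genes lower (18.7%) and 6 higher among the shortest, and 351 higher (13.4%) and 12 lower among the longest. Most abundant at the ends of the range were Apoa1, of HDL, with 988 bases (log2 fold change -0.81, SE 0.40) and complement C3 with 5139 bases (log2 fold change 0.39, SE 0.40).

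The same tilt was present between non-tumour libraries. Against the mean of the remaining non-tumour libraries the correlation of the difference with length was -0.0364 for non-tumour replicate 1, -0.435 for replicate 2 and 0.480 for replicate 3; for the tumours it was 0.409, 0.475 and 0.436. Geometric mean gene lengths weighted by reads were 2165, 2023 and 2316 bases in non-tumour liver and 2567, 2449 and 2384 bases in tumours. Every tumour lay above every non-tumour library on this measure, and non-tumour replicate 3 was nearest to tumour 3. Without non-tumour replicate 2 the correlation of tumours minus non-tumour liver with length was 0.378. RNA integrity values are not given in the sources used here, and the part of RNA quality in these results was not tested.

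A fit with an offset that removes the length trend from each library brought the correlation to 0.0059. In it mitochondrial ribosomal proteins had a median of -0.16, chromatin regulators 0.07, the proteasome -0.01, and cytosolic ribosomal proteins turned to 0.21 with 60 of 72 above 0; Rps29, at -0.71 without the offset, was at 0.06 with it. Nuclear noncoding RNAs went from a median of 0.27 to -0.42, endothelial genes from 0.07 to -0.27 and acute phase genes from -0.81 to -0.53. Fetal genes had 1.83 with the offset, NRF2 targets 0.76, pericentral genes -1.23 and periportal genes -0.76. EdgeR called 0 genes with the offset, with 1954 at an unadjusted p under 0.05.

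**Figure D4:**
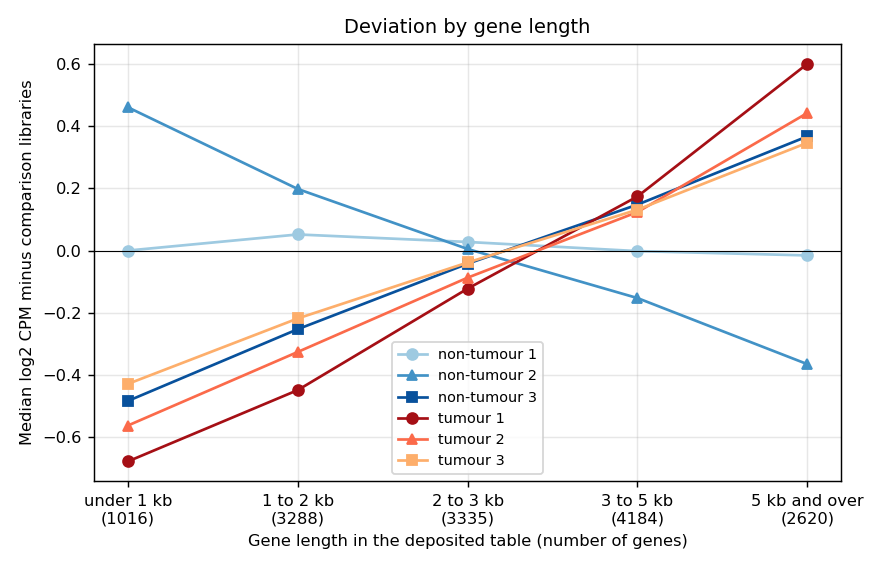
Median log2 CPM difference by bin of gene length (number of genes in brackets); each tumour is set against the mean of the 3 non-tumour libraries and each non-tumour library against the mean of the remaining pair. Lines of the 3 tumours and of non-tumour replicate 3 rise with length, from -0.68 to 0.60 in tumour 1, and the line of non-tumour replicate 2 falls from 0.46 to -0.37.

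YAP pathway genes had a median of 0.69 over 23 members with 22 above 0, 6 above every non-tumour library and 5 called; the median deviation was 1.49 in tumour 1 and 0.39 and 0.41 in tumours 2 and 3, and the list's median was 0.32 without tumour 1. Ankrd1, a YAP target, stood at 11.3, 6.83 and 10.5 CPM in non-tumour liver and at 92.3, 16.01 and 29.7 CPM in tumours (log2 fold change 2.27, SE 0.69, DESeq2 adjusted p = 0.0154). Ptpn14, a phosphatase of the pathway, stood at 12.0, 12.0 and 33.4 CPM and at 126.9, 79.0 and 63.2 CPM (log2 fold change 2.22, SE 0.56, DESeq2 adjusted p = 0.00397). The AP-1 subunit Fosl1, which overlaps Ccdc85b on the other strand, was at 0.255, 0.410 and 0.795 CPM and at 4.77, 2.496 and 3.10 CPM (log2 fold change 2.79, SE 0.62, DESeq2 adjusted p = 0.00188).

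Genes of the G2 and M phases had a median of 0.54 with 24 of 26 above 0, 5 above every non-tumour library and 1 call, Mki67, the proliferation antigen. Over all tested genes 13.2% lay above every non-tumour library and 4.32% were called higher. The median of the G2 and M list was 0.28, with 7 of 26 below 0, without tumour 3 and 0.84 without tumour 2. Mki67 stood at 13.8, 15.98 and 18.4 CPM and at 39.5, 31.5 and 35.0 CPM (log2 fold change 1.14, SE 0.25, DESeq2 adjusted p = 0.00536); with the length offset its log2 fold change was 0.51. By the list's median deviation, tumour 3 at 0.90 and tumour 1 at 0.60 were above non-tumour liver and tumour 2 at -0.02 was not. S phase genes had a median of 0.15 with 0 DESeq2 calls and 4 higher and 1 lower at an unadjusted edgeR p under 0.05; the median was 0.01 without non-tumour replicate 1 and -0.11 without tumour 3. Of 25 p53 targets 18 were above 0 with a median of 0.31, 4 called higher and 1 lower. Tnfrsf10b, a death receptor, was at 3.23, 3.96 and 7.52 CPM and at 10.3, 15.6 and 14.7 CPM, and Mdm2, the ubiquitin ligase of p53, was at 33.0, 41.9 and 44.9 CPM and at 76.0, 56.8 and 54.2 CPM. The kinase Plk3, which overlaps Tctex1d4 on the other strand, was lower, at 103.5, 46.3 and 73.6 CPM and at 14.3, 33.2 and 29.6 CPM (log2 fold change -1.53, SE 0.40, DESeq2 adjusted p = 0.0104).

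Autophagy genes other than Atg7 had a median of 0.01 with 17 of 34 above 0. Below every non-tumour library lay 8 and above it 3, where the shares of all tested genes were 13.8% and 13.2%. Against 3.68% of all tested genes called lower, 2 members were called, both lower. Gabarap, an LC3-family protein, was one of them, at 439, 461 and 312 CPM and at 178, 286.5 and 258 CPM (log2 fold change -0.75, SE 0.25, DESeq2 adjusted p = 0.0443), and with the length offset its log2 fold change was -0.30. Atg3, the E2-like enzyme that acts after ATG7, was at 113, 109.8 and 82.2 CPM and at 41.1, 68.9 and 62.2 CPM without a call. Among 14 genes for HMGB1 receptors and partners the median was 0.04, and -0.20 to 0.41 with single DKO libraries left out. DESeq2 called 1 of them higher and 1 lower. Cxcl12, a chemokine that binds HMGB1, was called lower, at 465, 255 and 294 CPM and at 142, 158 and 185 CPM (log2 fold change -1.06, SE 0.25, DESeq2 adjusted p = 0.00372), with no overlap and -1.53 with the length offset. Interferon response genes had a median of -0.11 (-0.25 to -0.05 with single DKO libraries left out) with 2 of 32 called, both lower, one of them Bst2, an antiviral tether, at 230.1, 203.5 and 150.4 CPM and at 89.3, 107 and 130.4 CPM.

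Acute phase genes were uneven among libraries of both tissues. Their median was -0.81 over 24 members with 0 called by DESeq2 and 0 at an unadjusted edgeR p under 0.05, and it was 0.02 without non-tumour replicate 2, -0.46 without tumour 1 and -1.53 without tumour 2. Orm2, an acid glycoprotein of a family with close copies, was at 100.5, 3238 and 228 CPM in non-tumour liver and at 2.97, 1277 and 309.9 CPM in tumours, so that both libraries numbered 2 were the highest. Hamp, the iron hormone hepcidin, was at 1679, 685 and 430.2 CPM and at 55.2, 109 and 240.1 CPM, without overlap and without a call (DESeq2 adjusted p = 0.105).

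Markers of other cells showed what else the tissues held. Neutrophil genes summed to 130.1 to 641.5 CPM in non-tumour liver and 62.8 to 254 CPM in tumours, with 0 of 15 without overlap, and tumour 1 was lowest with a median deviation of -2.57; the list's median of -0.71 was 0.25 without non-tumour replicate 2, -0.22 without tumour 1 and as low as -1.11 without non-tumour replicate 1. Macrophage genes summed to 3940 to 5573 and 2989 to 4803 CPM, with 2 of 30 above and 5 below every non-tumour library. The shares of all tested genes were 13.2% above and 13.8% below. T and NK cell genes summed to 92.0 to 129 and 55.8 to 102 CPM, with 5 of 23 below every non-tumour library. B and plasma cell genes summed to 318 to 500.2 and 279 to 326 CPM, with 13 of 14 below 0. These lists had 0 calls by DESeq2 and between 0 and 2 members in either direction at an unadjusted edgeR p under 0.05.

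Endothelial genes summed to 567 to 851 CPM in non-tumour liver and 659 to 779 CPM in tumours, with a median of 0.07 that ran from -0.22 to 0.32 with single DKO libraries left out. The sinusoidal lectin Clec4g was at 46.0, 47.1 and 37.4 CPM and at 12.5, 15.5 and 26.0 CPM, while the endomucin gene Emcn, of venous and capillary endothelium, was at 3.82, 5.05 and 6.72 CPM and at 14, 11.9 and 9.85 CPM; neither was called and neither overlapped. Stellate cell and fibroblast genes summed to 1406 to 2161 and 1431 to 2374 CPM. Of these 34 genes 2 were called, both higher, against 4.32% of all tested genes called higher. They were the matrix genes Fbln2, at 3.61, 3.35 and 5.86 CPM and at 6.00, 14.8 and 37.5 CPM, and Col5a2, at 10.8, 8.20 and 12.2 CPM and at 14.03, 29.0 and 31.0 CPM. Cholangiocyte genes summed to 479 to 1430 and 872 to 1415 CPM, with a median of -0.23 (-0.38 to 0.05 with single DKO libraries left out). Of 21 cholangiocyte genes 4 lay above every non-tumour library and 0 below, and 2 were called, both higher. Over all tested genes 13.2% lay above and 13.8% below. The calls were Tspan8, described above, and the epithelial transcription factor Ehf, at 7.73, 5.74 and 12.2 CPM and at 48.3, 41.0 and 15.3 CPM. The defining keratin Krt19 was at 13.0, 6.76 and 11.3 CPM and at 2.04, 2.98 and 10.1 CPM, with overlap. Of the pancreatic acinar genes Cpa1 had 0 or 1 read per library. The part of these cells in the results above was not tested.

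For each tumour, the genes with the largest gap to both other tumours are given without a test, whatever their level in non-tumour liver. Tumour 1 had the secreted factors Wnt16 and Fgfbp1 at 18.4 and 289 CPM, against at most 0.139 and 3.75 CPM in the other tumours, and the transmembrane protein Tmeff2 at 32.7 CPM, against at most 0.219 CPM. It was lowest for Orm3 and Hamp2, and had the sorting receptor Sorcs2 at 0.204 CPM against 26.5 and 20.1 CPM. Tumour 2 had Nup62cl at 15.5 CPM, against at most 0.137 CPM in any other DKO library. Tumour 2 was also high for Itgad, an integrin subunit, Cxcl13, a B cell chemokine, and Cyp2c69, at 12.4, 52.6 and 115 CPM, but non-tumour replicate 2 was higher still, at 14.1, 168 and 360 CPM; Itgad overlaps Cox6a2 on the other strand. Tumour 2 was lowest for H19, Slc39a5, Scube3 and Gstp2, the last a close copy of Gstp1. Tumour 3 had the imprinted fetal gene Dlk1 at 34.9 CPM, against at most 0.520 CPM in other DKO libraries, the aldehyde dehydrogenase Aldh3a1 at 41.4 CPM, against at most 2.05 CPM, Tmem54 at 28.6 CPM, against at most 0.451 CPM, and the Nogo receptor Rtn4r at 12.7 CPM, against at most 1.72 CPM. Tumour 3 was lowest for Liph and S100g, at 1.53 and 0.657 CPM. The interferon-inducible gene Ifi202b was at 0.0625 CPM in tumour 3 and 0.0331 CPM in non-tumour replicate 3, against 19.9 to 39.7 CPM in the other 4 DKO libraries.

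Tumour 1 also differed from the other libraries chromosome by chromosome. With the length trend removed, and over genes of at least 2 CPM, its genes had a median log2 difference from non-tumour liver of -0.49 on chromosome 4 (757 genes), -0.46 on chromosome 14 (412 genes), -0.48 on chromosome 16 (396 genes), -0.28 on chromosome 11 and -0.25 on chromosome 12. On chromosome 8 the median was -0.07, and on every other autosome it was between 0.17 and 0.32, or between 0.04 and 0.40 without the length trend removed. Autosome medians ran from -0.04 to 0.10 in tumour 2, from -0.11 to 0.17 in tumour 3 and from -0.11 to 0.09 in non-tumour libraries set against the remaining pair. Within chromosome 11 of tumour 1 the median was -0.45 over the first 80 Mb and 0.02 beyond, and within chromosome 12 it was 0.29 over the first 40 Mb and -0.39 beyond.

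In tumour 2 a contrast appeared within chromosome 5, whose overall median was 0.07. Over 304 genes from 20 to 100 Mb the median was -0.36, against 0.38 over 33 genes in the first 20 Mb and 0.38 over 466 genes beyond 100 Mb. The same stretches had -0.03, 0.27 and 0.13 in tumour 3 and 0.21, 0.41 and 0.18 in tumour 1. DESeq2, which was run without the length offset, called 52 of 517 tested genes higher and 5 lower beyond 100 Mb of chromosome 5. Over all tested genes it called 4.32% higher and 3.68% lower. The neighbours Smurf1 and Trrap were among the higher calls of this stretch. Of 137 windows of 20 Mb with at least 20 genes, 23 were below -0.3 and 29 above 0.3 in tumour 1, 4 and 3 in tumour 2, none of either in tumour 3 and in non-tumour replicates 2 and 3, and 5 and 0 in non-tumour replicate 1. Copy number was not measured, the boundaries were set after the values were seen, and no test was made.

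**Figure D5:**
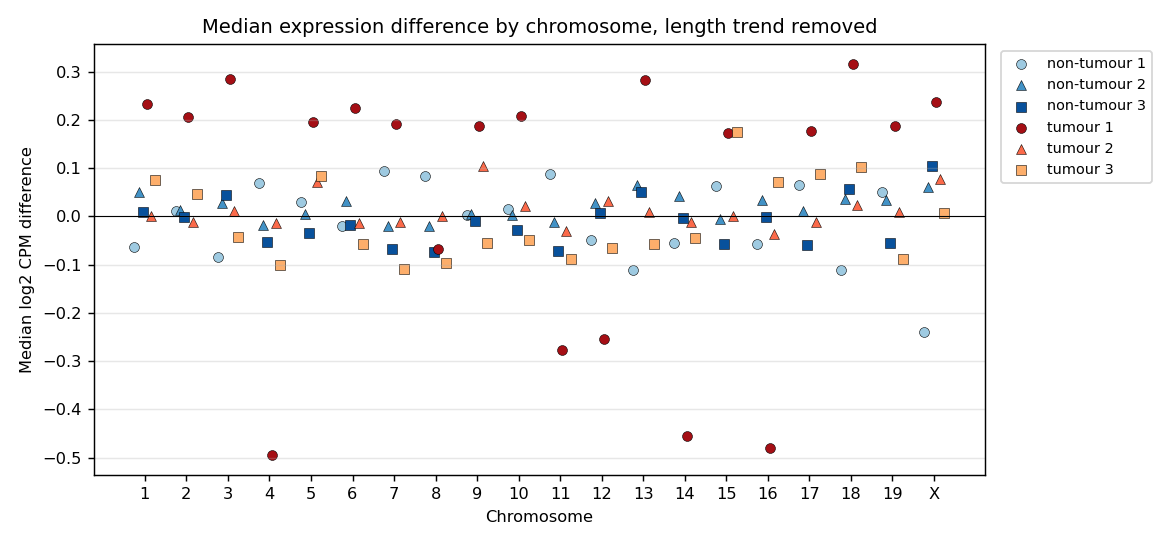
Median log2 CPM difference per chromosome (autosomes 1 to 19 and X) after the trend with gene length was removed, 1 point per library; tumours are set against the 3 non-tumour libraries and each non-tumour library against the remaining pair. Tumour 1 lies at -0.49, -0.46 and -0.48 on chromosomes 4, 14 and 16, while the autosome medians of tumours 2 and 3 stay between -0.11 and 0.17.

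Whether the tumour difference itself differed between DKO and Atg7KO mice was tested as an interaction. EdgeR called 0 of 14443 genes (0.0%, lowest adjusted p = 0.175), with 2582 (17.9%) at an unadjusted p under 0.05, and DESeq2 called 439 (3.04%). The genotypes also differ in sex chromosome transcripts, which the labels do not mention, so genotype and sex cannot be told apart: the Y-linked gene Ddx3y had 820 to 2243 reads in each DKO library and 0 to 1 in each Atg7KO library, and Xist, the RNA that silences an X chromosome in females, had 0 to 2 and 1130 to 12216. Across genes the interaction had a Spearman correlation with length of 0.574, and of 0.0059 with the length offset. List medians for DKO minus Atg7KO were -1.13 for complex I and 1.02 for chromatin regulators, and -0.15 and 0.23 with the offset. The median furthest from 0 was that of the female-biased liver genes, at 2.49 and 2.95 with the offset. YAP pathway genes had 1.37 and 1.17, cholangiocyte genes 1.17 and 1.28, and stellate cell and fibroblast genes 1.15 and 0.76. For pericentral genes the median was 1.02 and with the offset 0.74, so the tumour difference of these genes was less negative in DKO mice by the median, and for NRF2 targets it was -0.22 and with the offset 0.03.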

How the data were processed

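RNA was sequenced from DKO tumours and non-tumour liver, with 3 libraries per group, beside 6 Atg7KO libraries. The authors deposited 1 table of unnormalized read counts by RefSeq gene, with gene lengths in bases. Per the submitters' processing notes it was made with bcl2fastq, STAR 2.5.3a and featureCounts of Subread 1.5.3 on mm10, and the notes also name edgeR 3.20.8. The strand setting and library kit are not given in the sources used here. All 27 gene names that had become dates were restored from their accessions, 4509 genes had no read in any library, and 0 per-sample columns were left unused. The common biological coefficient of variation was 0.365.

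Genes passing filterByExpr (minimum count 10, minimum total 15) were scaled with TMM and tested with the quasi-likelihood F test of edgeR 4.0.16 in R 4.3.3, with all 12 libraries fitted together and 1 coefficient for each of the 4 groups. P-values are two-sided, with Benjamini-Hochberg adjustment across every tested gene. They measure the spread between libraries; the labels do not say which libraries share an animal. Alternatives were RLE factors, no filter, a gene length offset (lowess of each library's deviation on log2 length, span 0.3), a replicate block, the 6 DKO libraries alone, each DKO library left out, DESeq2 1.42.0, and limma 3.58.1 voom with quality weights. The fit was tested on simulated data. Log2 CPM used a prior count of 2.

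Genes named were Atg7 and Hmgb1; the 8 most positive and 8 most negative log2 fold changes and the 6 genes of lowest p among genes whose groups did not overlap, with a mean of 5 CPM or more in one group, unadjusted p under 0.05 and no predicted-model symbol; the 2 members of each list with the largest difference and no overlap (at least 1 CPM), or the most abundant member; 4 genes most above and 4 most below the others in each tumour; the most abundant gene of the shortest and longest bin; and further members of a list that a sentence describes. The members, the 40 lists and the rules were chosen with earlier results of these data known. Chromosome medians, their alternatives and the promoter letters were chosen after seeing the data; the medians are over genes of at least 2 CPM.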

Additional observations from a re-analysis of the deposited data

How the results depend on the processing

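EdgeR called 0 genes of DKO tumours against non-tumour liver in the reported fit. The count was also 0 with RLE factors, without the filter, with the length offset, with the replicate block, with the block and offset together, and with voom, but 1 with the 6 DKO libraries alone (Igf2bp3) and 1155 with DESeq2. Leaving out single DKO libraries gave 0 to 597 calls, all 597 without non-tumour replicate 3. For the interaction the counts were 0 throughout, leave-one-out fits included (0 to 0), except 1 with the replicate block, 1 with the block and offset (Slc22a26 in both) and 439 with DESeq2. The block changed no other call. Replicate numbers were not taken as pairs, because the labels do not say which libraries share an animal. Deviations of libraries with the same number correlated across genes at 0.0744, 0.333 and 0.0242. The 0.333 of the libraries numbered 2 was the highest for any non-tumour and tumour library, while non-tumour replicate 3 correlated best with tumour 1, at 0.161. Some genes matched by number: Orm2 was highest in both libraries numbered 2. Itgad, Cxcl13 and Cyp2c69, high in tumour 2, were higher still in non-tumour replicate 2. Ifi202b was near 0 only in the libraries numbered 3. Whether libraries with the same number share an animal was not tested. At an unadjusted p under 0.05, 2901 genes passed with the block and 3251 without.

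The correlation of the log2 fold change with gene length was 0.611 in genes of at least 10 CPM and ran from 0.378 to 0.503 when single DKO libraries were left out. Genes beyond the non-tumour range numbered 2225, 578 and 379 in tumours 1, 2 and 3 at 2-fold, 569, 97 and 83 at 4-fold, and 1161, 167 and 92 among genes of at least 10 CPM; tumour 1 had the most in each case. Lists with a median beyond 0.5 in either direction numbered 19, and 12 with the length offset (14 to 23 when single libraries were left out). Of 90 genes chosen by the naming rules, 85 kept the sign of the log2 fold change in every alternative. Rps29 (-0.71) was at 0.060 with the offset and 0.051 with block and offset, Tug1 (0.37) at -0.062 and -0.060, and Eif2s3y (-0.20) at 0.051 and 0.049. Itgb2 (-0.18) was at 0.12 with voom and ran from -0.69 to 0.40 in leave-one-out fits, and Cela1 (0.56) from -0.43 to 0.99. The offset removes the length trend by construction; for the other changes the cause was not tested. Of the 60 chromosome medians of the tumours (20 chromosomes), 18 moved by more than the SD of the non-tumour libraries without the length trend removed and 6 with a minimum of 10 CPM; in tumour 1 those of chromosomes 4, 11, 12, 14 and 16 moved by less in both. Limits are the 3 libraries a group, tumours that differ widely from each other, and no record of RNA quality in the sources used here.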

Other observations

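Lipid synthesis genes were mixed among the tumours. Of 26 lipogenesis genes 17 were below 0 with a median of -0.45 (-0.19 without tumour 1, -0.74 without tumour 2), 1 was called higher by DESeq2 and 1 lower. Over all tested genes 4.32% were called higher and 3.68% lower. The lower call was Thrsp, a lipogenic nuclear protein, at 353, 176 and 274 CPM in non-tumour liver and at 6.08, 83.02 and 90.5 CPM in tumours (log2 fold change -2.16, SE 0.83, DESeq2 adjusted p = 0.0407). The higher call was Scd2, a stearoyl-CoA desaturase, at 32.1, 53.8 and 101 CPM and at 76.2, 389.7 and 224 CPM, with overlap. Median deviations of the list were -1.40, -0.16 and -0.27 in tumours 1, 2 and 3. Cholesterol synthesis genes had a median of -0.20 (0.09 without tumour 1, -0.76 without tumour 2), with deviations of -1.12, 0.40 and -0.26, so tumour 2 stood above non-tumour liver and the other tumours below.

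Liver sex-biased genes, which follow growth hormone, were lower in tumour 1 in both lists. The male-biased list had median deviations of -2.16, -0.70 and -0.24 in tumours 1, 2 and 3, and the female-biased list -2.01, 0.21 and -0.60. Nudt7, a peroxisomal hydrolase of the male-biased list, was at 320.4, 137 and 263 CPM and at 24.95, 46.6 and 104 CPM (log2 fold change -2.04, SE 0.70, DESeq2 adjusted p = 0.0277). Hepatocyte transcription factors as a list had a median of 0.12 (-0.21 with the gene length offset, -0.10 without non-tumour replicate 2 and -0.06 without tumour 1) with 11 of 20 above 0 and 0 called by DESeq2, against 1 higher and 2 lower at an unadjusted edgeR p under 0.05. The xenobiotic receptor Nr1i3, which overlaps Tomm40l on the other strand, stood at 104.5, 92.4 and 74.5 CPM and at 5.44, 36.4 and 58.2 CPM. Within the immediate early list Myc was at 20, 14.9 and 20.3 CPM and at 67.4, 21.3 and 29.5 CPM, without overlap and without a call (DESeq2 adjusted p = 0.0883). In the macrophage list the scavenger receptor Marco was at 3.35, 5.19 and 5.40 CPM and at 0.116, 2.32 and 1.56 CPM, while the lipopolysaccharide receptor Cd14 was at 36.4, 97.5 and 79.6 CPM and at 146, 332.5 and 151 CPM; neither overlapped and neither was called.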
